A study of Mus musculus with 6 samples.

Results

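Neuropilins, semaphorins and plexins are membrane and secreted proteins first known for guiding axons, and 10 of their genes were followed here in regulatory T cells: Nrp1, Nrp2, Sema4a, Sema4b, Sema4d, Sema4f, Plxna1, Plxnb2, Plxnc1 and Plxnd1. They were chosen by gene symbol, are 10 of 18193 genes on the array, and are read by 27 probe sets, each of which the platform annotation assigns to a single gene. Regulatory T cells (Treg), defined by the transcription factor Foxp3, were taken from the mesenteric lymph nodes of 4 to 6 week old mice, all on a Balb/c background and sorted as CD4+ Foxp3+ with a Foxp3 GFP reporter. The 3 iTreg arrays hold Treg of TBmc mice fed 1% ovalbumin for 1 week, gated as Nrp-; these mice have one T cell receptor specificity, for ovalbumin, and one B cell receptor on a background that cannot rearrange others, so their Treg arise outside the thymus and carry a single receptor. The 3 wild-type (WT) Treg arrays hold the total pool of WT Foxp3 GFP mice, for which no feeding is given and which mixes Treg of thymic and other origin. The labels do not say whether mice were pooled or whether replicates are separate mice, so a p-value rests on the spread among 3 arrays a group, some or all of it perhaps technical. Genotype, receptor, feeding and gate differ together and cannot be told apart.

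Semaphorins are ligands, plexins are their signalling receptors, and neuropilins are co-receptors that bind class 3 semaphorins and growth factors such as VEGF and lend them to plexins, since their own tails have no enzyme activity. Plexins act through a GTPase-activating domain on small GTPases and so on the cytoskeleton and on integrins. In lymphocytes the membrane-bound class 4 semaphorins are the best known, and Nrp1 is used as a surface marker of thymus-derived Treg, on which it has also been described as a receptor for Sema4a.

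The values are MAS5 signals on a linear scale, scaled to one level per array. The brightest of 27 bacterial control probe sets with no target in the sample reached 28.5, which serves here as the upper end of background. Over the genes tested, iTreg replicates 1 and 2 each correlated more closely with WT replicate 1 (0.948 and 0.946) than with each other (0.938). The array of iTreg replicate 3 correlated with the other 5 arrays at 0.879 to 0.902, and the other pairs at 0.909 to 0.949. T cell markers were bright in both groups, with summed signals of 16616 to 20595 in iTreg, against 15590 to 22652 in WT Treg over 7 genes. Over 10 Treg markers the sum was lower on every iTreg array, at 15246 to 21258, against 22019 to 28640 in WT Treg. Il2ra, Ikzf2, Tnfrsf18, Gpr83 and Nt5e were each lower on every iTreg array than on any WT array. Foxp3, Il2rb, Ctla4, Ikzf4 and Izumo1r overlapped between groups. The part of these marker differences in the values of the 10 genes followed here was not tested. The single Foxp3 probe set gave 31.7, 54.6 and 15.6 in iTreg, against 26.2, 45.7 and 9.16 in WT Treg, so the sorted gene itself was at the edge of background. RNA quality, read as the 3′ over 5′ signal of Gapdh on the log2 scale, was 2.46 to 3.35 in iTreg, against 2.26 to 2.49 in WT Treg, and was highest on iTreg replicate 3. The same measure for Actb was at most 0.38 in iTreg, against 0.14 to 0.32 in WT Treg, and was lowest on iTreg replicate 3. Of 2 arrays the labels disagree: the cell type of WT replicate 1 is given as Nrp-, against its title, and the strain of iTreg replicate 1 does not name TBmc.

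In iTreg the gated gene Nrp1 was low, its relative Nrp2 was low and near background in both groups, and Sema4a and Plxna1 had higher signals on every iTreg array than on any WT array. Neither Nrp2, Sema4a nor Plxna1 passed the threshold of an adjusted p of 0.05 in the comparison of all genes. Of the 10 genes, 9 had a mean level high enough to be tested (a signal of about 15.9 or more) and Plxnb2 did not. Nrp1 is left out of the counts of tests, since the gate fixes its direction. Of the other 8, limma called 0, where it called 0.0275% of the 10916 genes tested. At an unadjusted p under 0.05 it gave 2 of the 8 higher (Sema4a and Plxna1) and 0 lower, a threshold passed upwards by 3.0% and downwards by 4.58% of all genes. The same 2 were the ones whose groups did not overlap, as was the case for 5.10% of all genes upwards and 7.78% downwards. The 8 genes had a median log2 difference of 0.18, with 6 positive and 2 negative, beside a median of -0.03 over all genes. With both arrays of disagreeing labels left out, the same 2 genes were higher without overlap, which their separation on all arrays had already fixed. Nrp2 and Plxnc1 were then lower without overlap. With 2 arrays a group, 15.5% of all genes separated upwards and 18.8% downwards.

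**Figure D1:**
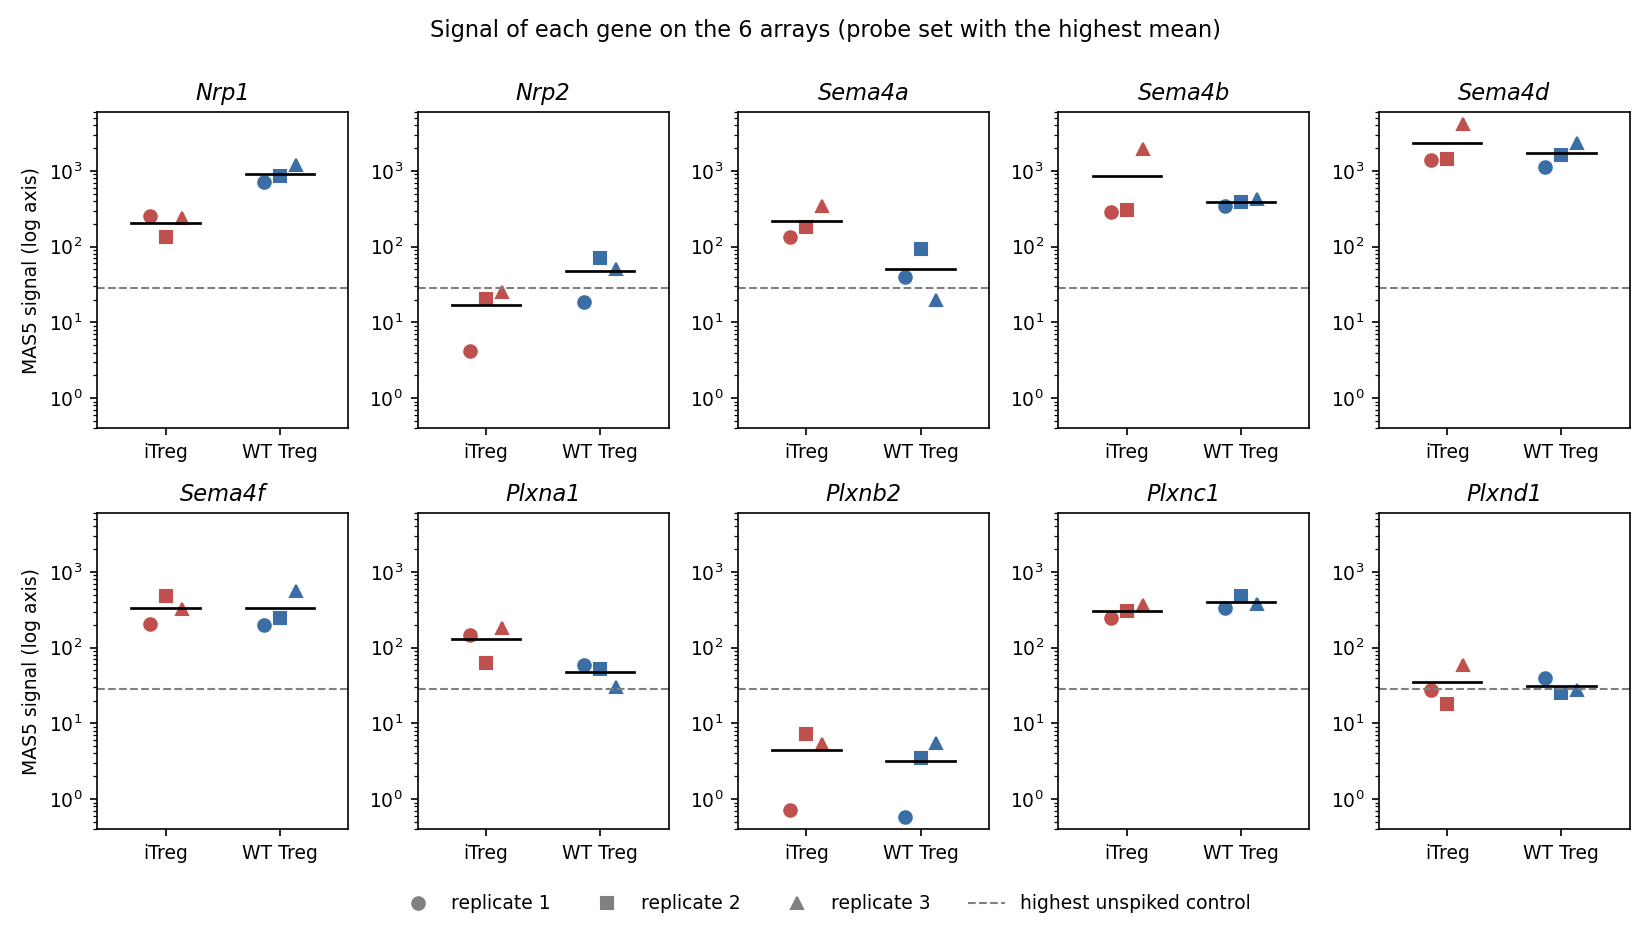
MAS5 signal (log axis) of the 10 genes on each of the 6 arrays, from the probe set of each gene with the highest mean; marker shape gives the replicate number, bars are group means and the dashed line is the brightest unspiked control, 28.5. Nrp1 is lower on all 3 iTreg arrays than on any WT array and Sema4a and Plxna1 are higher, while the other 7 genes overlap and Plxnb2 lies under the line on every array.

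The iTreg gate is written Nrp- in the labels and is read here as a gate on Nrp1, so the levels of Nrp1 describe the gate and are given without a test. Its brightest probe set had signals of 252, 133 and 238 in iTreg replicates 1, 2 and 3 and of 708, 862 and 1189 in WT replicates 1, 2 and 3. The groups stood clear of each other, and the lowest iTreg array still lay well above the controls. The log2 difference was -2.08 (SE 0.34), a fold of 4.23 on the log2(signal + 16) scale on which all differences here are taken. Its other probe sets differed by -1.99, -2.66 and -2.23, so that the fold ran from 3.96 to 6.34. In a bulk sample a smaller share of positive cells and less RNA per cell cannot be told apart.

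WT replicate 1, the array with the Nrp- label, carried Nrp1 signals of 708, 422, 349 and 174 on the 4 probe sets, against at most 252, 134, 89.5 and 43.0 on any iTreg array. On 3 of the 4 it was the lowest of the WT arrays, and on none did it reach down to the iTreg arrays. The fourth probe set was dim in iTreg, at 43.0, 6.21 and 24.5, within or near background. Leaving out WT replicate 1 gave a log2 difference of -2.25 for Nrp1, and leaving out any other single array gave -2.23 to -1.81.

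Nrp2, the second neuropilin, binds class 3 semaphorins and VEGF-C and is best known from neurons and lymphatic endothelium. Its brightest probe set had signals of 4.20, 20.6 and 25.6 in iTreg, against 18.9, 71.6 and 51.4 in WT Treg. Only WT replicates 2 and 3 lay above the controls, and WT replicate 1 lay among the iTreg arrays. The log2 difference was -0.91 with a 95% interval from -1.86 to 0.03 (limma adjusted p = 0.677). A second probe set behaved alike, with 8.34, 23.6 and 14.9 against 21.8, 44.0 and 32.9 and a difference of -0.63. The other 2 probe sets of Nrp2 had signals of at most 7.60 on any array. Nrp2 was not part of the gate as far as the labels say, which write Nrp without a number. Without WT replicate 1 its groups no longer overlapped and the difference was -1.29, and without iTreg replicate 1 it was -0.60. With fewer arrays more genes separate, and the share of all genes without that WT array was not counted. With pseudocounts of 1 and 64 it was -1.55 and -0.44, so that the size of a difference this close to background is set by the scale.

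Sema4a is a membrane-bound class 4 semaphorin of dendritic cells, B cells and activated T cells, and a ligand of plexins and of Nrp1. Its brighter probe set, whose name does not mark it as specific, had signals of 135, 182 and 340 in iTreg replicates 1, 2 and 3. In WT replicates 1, 2 and 3 this probe set had 40.4, 93.0 and 20.0. Every iTreg array was above every WT array, and WT replicate 3 lay within background. The mean was 219 ± 108 (SD, n = 3) in iTreg and 51.1 ± 37.7 in WT Treg. The log2 difference was 1.86 with a 95% interval from 0.78 to 2.94, a 3.64-fold higher level (limma adjusted p = 0.339). The second probe set, whose name marks it as specific, had 87.0, 98.4 and 73.6 in iTreg against 47.6, 43.7 and 5.10 in WT Treg. It too had groups that did not overlap, with a smaller difference of 1.24. In the fit over all probe sets, where 0.0191% of 20967 were called, neither Sema4a probe set was (limma adjusted p = 0.397 and 0.701).

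The size of the Sema4a difference leaned on the replicate 3 arrays, which held the highest iTreg and the lowest WT signal of the brighter probe set. Without both of them it was 1.14 (limma adjusted p = 0.781), and without both arrays of disagreeing labels it was 2.09. Leaving out single arrays gave 1.49 to 2.29. Because dendritic cells carry Sema4a, their markers are given beside it. The summed signal of 13 myeloid and dendritic cell markers was 248 to 352 in iTreg, against 137 to 173 in WT Treg, so that this list too was higher without overlap. Of the 13, 7 were at or under the controls on all arrays, namely Itgax, Cd14, Adgre1, Fcgr1, Csf2rb2, Siglech and Flt3. Those above on any array were Zbtb46, S100a8, S100a9, Lyz2, Itgam and Csf1r, and different genes made up the sum on different arrays. Zbtb46 was above the controls on every array and S100a9 on every iTreg array. Lyz2 was above them only on iTreg replicates 1 and 2, and S100a8 only on iTreg replicate 2. Itgam was above them only on iTreg replicate 3 and Csf1r only on iTreg replicate 1. Zbtb46, a transcription factor of dendritic cells, had 35.0, 63.6 and 186 in iTreg, against 84.6, 74.8 and 29.5 in WT Treg, with overlap. Itgam and Csf1r overlapped too, whereas S100a8, S100a9 and Lyz2 were higher on every iTreg array than on any WT array. For S100a8 and Lyz2 that separation rests in part on iTreg values within background. S100a8 and S100a9, which are abundant in neutrophils, were highest on iTreg replicate 2. S100a8 had 16.8, 91.2 and 18.1 in iTreg, against 1.59, 9.44 and 12.7 in WT Treg. S100a9 had 51.8, 78.5 and 33.0 against 13.1, 1.37 and 0.81, and Lyz2 had 44.6, 44.2 and 23.1 against 21.9, 9.01 and 8.79. Over 7 B cell markers the sum was 94.6 to 133 in iTreg, against 99.0 to 137 in WT Treg. Ms4a1, Pax5, Blk and Cd22 were at or under the controls on all arrays. Cd79a, Cd79b and Ebf1 were above them on some arrays, and each overlapped between groups. Cd79b had 25.6, 17.8 and 83.7 in iTreg, against 43.3, 54.3 and 58.7 in WT Treg. The sum of 3 NK cell markers was also higher without overlap, at 185 to 371 in iTreg, against 60.6 to 132 in WT Treg; Eomes, which T cells can also express, was the one above the controls, with Ncr1 and Klra8 at or under them. The part of other cells in the Sema4a signal was not tested.

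Sema4d (CD100), the semaphorin best known from T cells, binds Plxnb1 in tissues and Cd72 on B cells. Its brightest probe set had signals of 1383, 1448 and 4182 in iTreg, against 1145, 1635 and 2351 in WT Treg. The groups overlapped, and in each the replicate 3 array was the highest. The log2 difference was 0.31 with a 95% interval from -0.61 to 1.22 (limma adjusted p = 0.885), and it turned to -0.21 without iTreg replicate 3. Its other probe sets, at 79.8 to 191 and 17.6 to 28.6 in iTreg, differed by -0.24 and -0.52, and the average of all 3 by -0.15. Sema4d was thus well above background in both groups, except on its dimmest probe set, which lay within or near background in iTreg. No direction was shared by all of its probe sets.

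Sema4b, a further membrane-bound class 4 member, had signals of 285, 301 and 1977 in iTreg, against 342, 390 and 422 in WT Treg on its brighter probe set. A single array, iTreg replicate 3, stood far above the rest, while iTreg replicates 1 and 2 lay under every WT array. The log2 difference of 0.53, with a 95% interval from -0.75 to 1.80 (limma adjusted p = 0.863), therefore turned to -0.37 without that array. The second probe set gave 84.3, 249 and 442 against 304, 179 and 279, a difference of -0.20. On it iTreg replicate 3 was again the highest array, with WT replicate 1 next.

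Sema4f, described mostly in the nervous system, had signals of 204, 477 and 323 in iTreg, against 198, 245 and 565 in WT Treg. The groups covered the same range, and the log2 difference was 0.06 with a 95% interval from -0.89 to 1.01 (limma adjusted p = 0.986). Its second probe set, the only one whose name marks it as specific, differed by 0.29, with 108, 239 and 119 against 121, 151 and 86.3. Both were above the controls on all 6 arrays. Leaving out iTreg replicate 2, WT replicate 1 or WT replicate 2 turned the sign of the first, to between -0.23 and -0.085.

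Among the receptors, Plxna1 pairs with neuropilins to transmit class 3 semaphorin signals. Its signals were 145, 62.5 and 180 in iTreg, against 58.6, 52.0 and 30.6 in WT Treg. All iTreg arrays were above all WT arrays, but iTreg replicate 2 exceeded WT replicate 1 only narrowly. The mean was 129 ± 60.4 (SD, n = 3) against 47.1 ± 14.6, a log2 difference of 1.13 with a 95% interval from 0.16 to 2.10 (limma adjusted p = 0.613). Without iTreg replicate 2 it was 1.52 and without iTreg replicate 3 it was 0.86, and without both replicate 3 arrays it was 0.66. Its second probe set stayed at or below a signal of 2.20 on every array and could not be compared. Averaging the pair gave 0.54.

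Plxnc1 is the plexin that binds Sema7a. Its brightest probe set had signals of 243, 307 and 366 in iTreg, against 330, 483 and 380 in WT Treg. The iTreg arrays were lower on average, but iTreg replicate 3 lay above WT replicate 1. The log2 difference was -0.36 with a 95% interval from -1.05 to 0.32 (limma adjusted p = 0.838). Of its 5 tested probe sets 4 differed downwards, from -0.36 to -0.24, and 1 upwards, by 0.58, and the groups overlapped on all 5. The gap between groups opened without iTreg replicate 3 or WT replicate 1, with differences of -0.50 and -0.49. The share of all genes that separated without either array was not counted, and fewer arrays separate more genes.

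Plxnd1, the receptor of Sema3e that steers thymocytes and vessels, had signals of 27.2, 17.8 and 59.4 in iTreg, against 40.3, 25.4 and 27.5 in WT Treg. Only 1 array of each group was above the controls. Its log2 difference was 0.04 with a 95% interval from -0.81 to 0.89 (limma adjusted p = 0.987), and it turned to -0.29 without iTreg replicate 3. Plxnb2, a receptor for class 4 semaphorins in many tissues, had signals of at most 7.31 on every array and was not tested. Whether it is expressed below that level was not detectable with its single probe set.

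**Figure D2:**
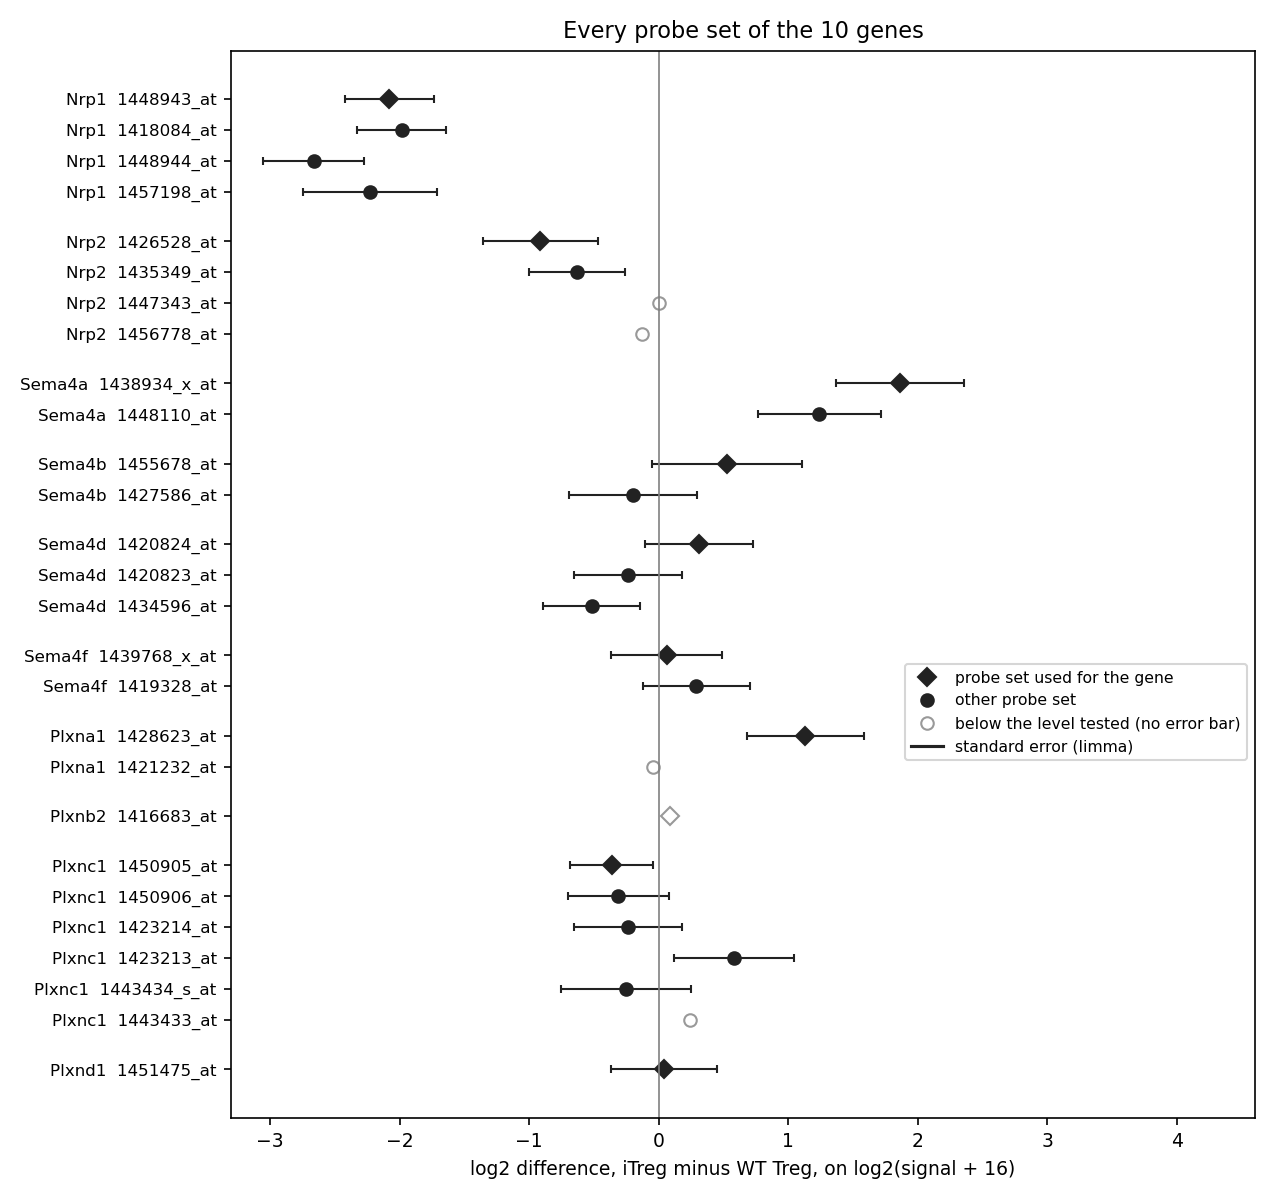
Log2 difference, iTreg minus WT Treg, of all 27 probe sets of the 10 genes; diamonds mark the probe set used for a gene, bars are standard errors from limma, and open symbols are probe sets below the level tested. All 4 Nrp1 probe sets lie between -2.66 and -1.99 and both of Sema4a at 1.24 and 1.86, whereas those of Sema4b, Sema4d and Plxnc1 fall on both sides of 0.

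Leaving out iTreg replicate 3 lowered the differences of Sema4a, Sema4b and Sema4d, to 1.52, -0.37 and -0.21. For Sema4b and Sema4d no other single array moved the value as far, whereas Sema4a moved farther without WT replicate 2 (2.29) or WT replicate 3 (1.49), and Sema4f moved least without iTreg replicate 3. It held the highest iTreg signal of these 3 genes, and also of Nrp2, Plxna1, Plxnc1 and Plxnd1. Groups that do not overlap with 3 arrays each cannot come to overlap when an array is left out, so the kept direction of Nrp1, Sema4a and Plxna1 adds nothing to the values themselves.

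**Figure D3:**
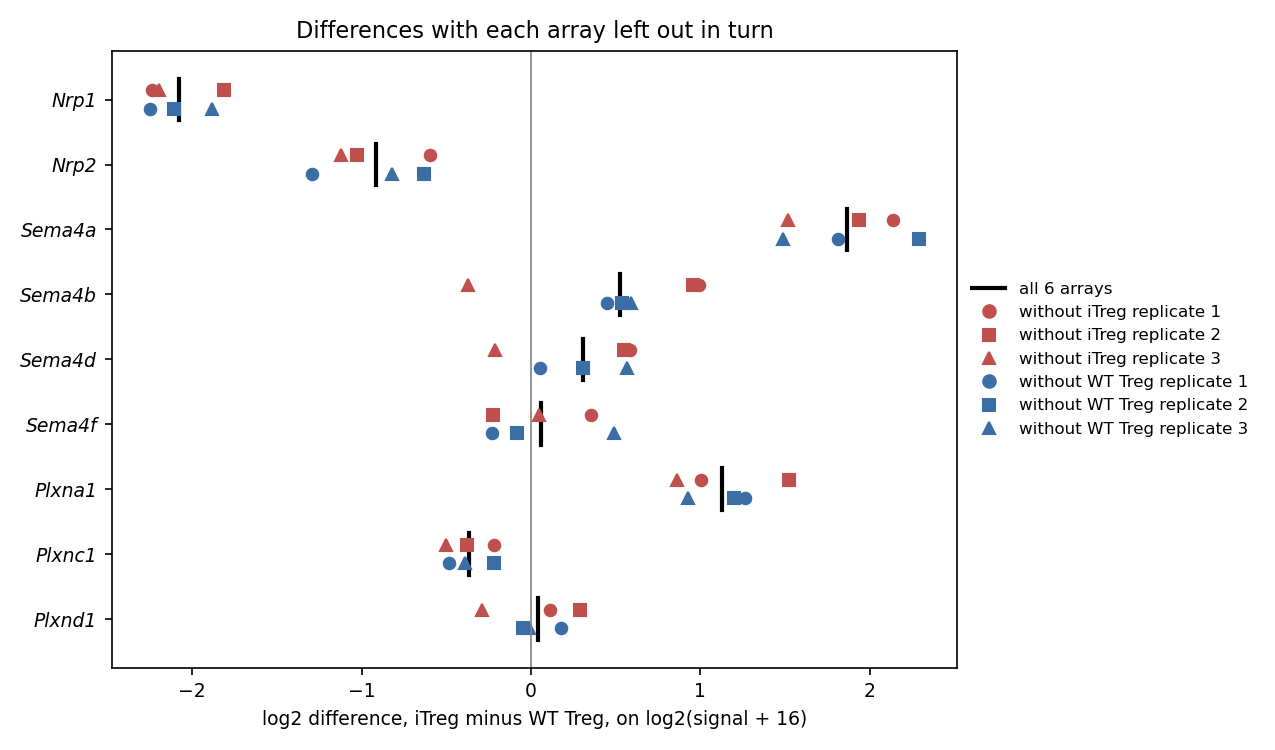
Log2 difference of the 9 tested genes with all 6 arrays (black bars) and with each array left out in turn (red for iTreg, blue for WT Treg, shape for the replicate). Sema4b, Sema4d, Sema4f and Plxnd1 cross 0 when single arrays are left out; Nrp1 stays between -2.25 and -1.81 and Sema4a between 1.49 and 2.29.

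The rest of the family was mostly at background. Of 31 neuropilin, semaphorin and plexin genes listed, 11 were tested, and of the 21 that are not among the 10 genes above, 16 had no array above the controls. All 7 class 3 semaphorins, the secreted ligands that neuropilins bind, were among these, with a highest signal of 23.3. The 2 class 5 genes, Sema4c and Sema4g were likewise under the controls on all arrays. Outside the 10, Sema7a and Plxnb1 were the 2 genes tested. Sema7a, a GPI-anchored semaphorin that binds Plxnc1 and integrins, had 31.7, 40.7 and 49.9 in iTreg, against 38.2, 31.0 and 65.1 in WT Treg. The difference on the log2 scale was -0.07 (limma adjusted p = 0.979). Plxnb1, the high-affinity receptor of Sema4d, had 32.9, 58.3 and 23.7 against 31.2, 83.5 and 22.5, a log2 difference of -0.11 (limma adjusted p = 0.973). The groups overlapped for both.

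**Figure D4:**
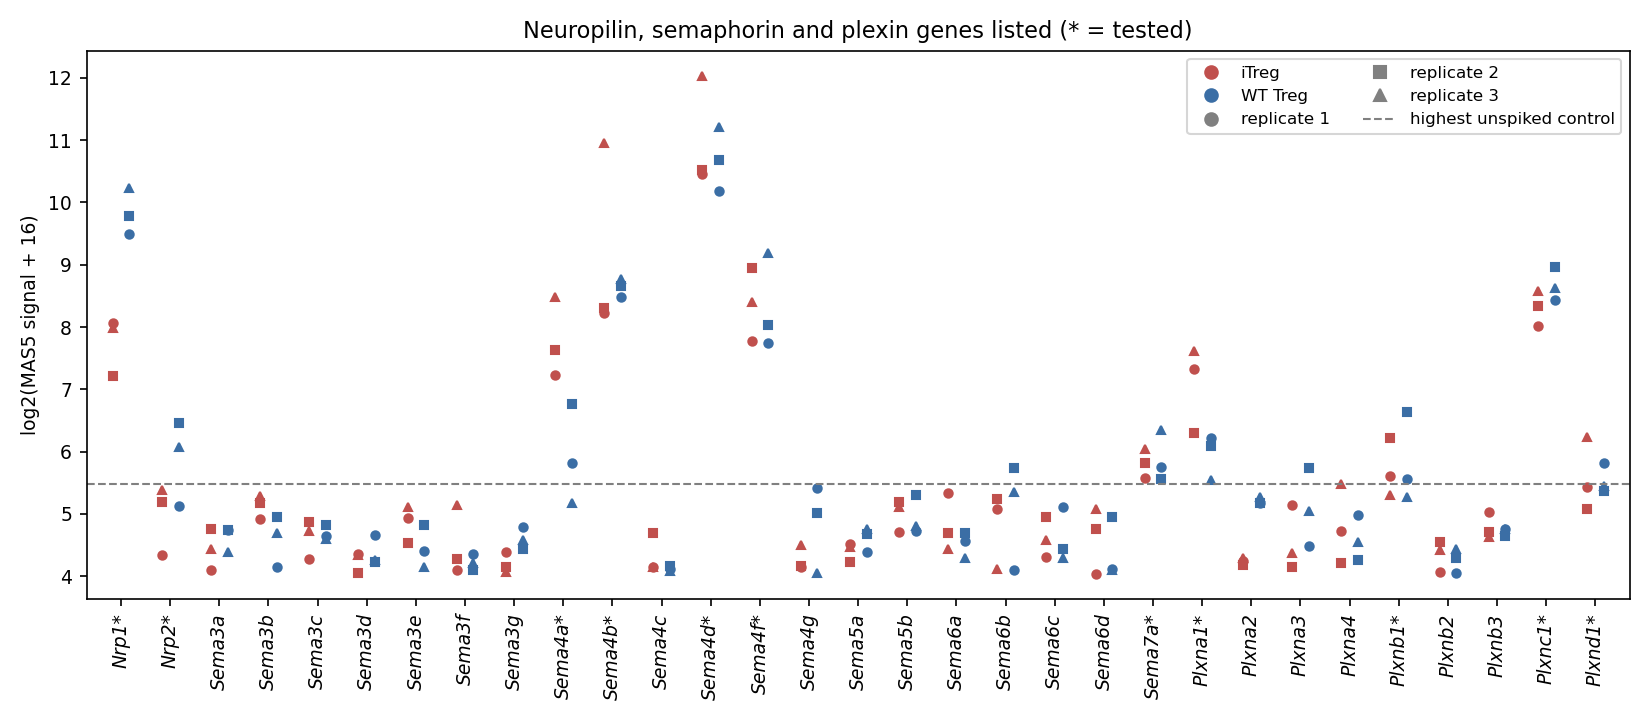
Log2(MAS5 signal + 16) of the 31 listed genes on each array, red for iTreg and blue for WT Treg, with the dashed line at the brightest unspiked control; asterisks mark the 11 genes tested. Class 3 semaphorins lie under the line on all arrays, and levels of different genes come from different probes and are not to be set against each other.

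Other receptors, partners and downstream genes were read from lists. Of 11 further semaphorin receptors 3 were tested and 0 were called, where 0.0275% of all genes tested were called. Itgb1, the integrin beta 1 chain, which pairs with Itga1 as a receptor of Sema7a and with other alpha chains for matrix, had signals of 150, 173 and 107 in iTreg, against 451, 530 and 521 in WT Treg. The groups were far apart, at a log2 difference of -1.71 (SE 0.32; limma adjusted p = 0.109). Its other tested probe sets differed by -2.22, -1.37, -0.51 and -0.52, the first pair without overlap, and the mean of all of its probe sets by -1.03. Cd72, the Sema4d receptor of B cells, differed by 0.68 (limma adjusted p = 0.739) with overlapping groups, and by 1.12 without iTreg replicate 3. L1cam, a co-receptor of Sema3a with Nrp1, differed by 0.52 on a probe set whose groups did not overlap (limma adjusted p = 0.785), and by -1.34 on its other probe set, below the level tested, which gave 4.20, 0.89 and 1.47 in iTreg, against 27.0, 27.5 and 35.5 in WT Treg.

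Of 15 VEGF and TGF-beta ligands, receptors and adaptors that work with neuropilins, 9 were tested and 0 were called. The 9 had 6 positive and 3 negative differences and a median of 0.14. Of all genes tested 0.0275% were called, with 5151 positive, 5765 negative and a median of -0.03. Gipc1, the PDZ adaptor that binds the tail of Nrp1, had signals of 161, 171 and 188 in iTreg, against 129, 64.9 and 102 in WT Treg. It was higher on all iTreg arrays, by 0.76 with a 95% interval from -0.06 to 1.59 (limma adjusted p = 0.698). The TGF-beta co-receptor Tgfbr3 had 425, 685 and 711 against 206, 399 and 405, also without overlap; its differences on the 2 probe sets were 0.85 (limma adjusted p = 0.623) and 1.09, and the first was 0.54 without WT replicate 1. The signalling receptor Tgfbr1 went the other way on all 3 probe sets, by -0.35, -0.66 and -0.98, the last pair without overlap (limma adjusted p = 0.844 for the first). Without iTreg replicate 2 the first was -0.060. Vegfb, a growth factor that binds Nrp1, differed by 0.52 (limma adjusted p = 0.776) near background, at 26.4 to 33.8 in iTreg, against 6.93 to 28.0 in WT Treg, and by 0.27 without WT replicate 1.

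Of 43 genes of plexin signalling, 38 were on the array with a single symbol, 31 were tested and 0 were called. Among the 31, 16 were positive and 15 negative, with a median of 0.04. Of all genes tested 0.0275% were called, with 5151 positive, 5765 negative and a median of -0.03. Tiam1, an activator of the GTPase Rac1, had signals of 253, 356 and 502 in iTreg, against 569, 838 and 1212 in WT Treg. The highest iTreg array lay just under the lowest WT array, and the log2 difference was -1.19 (SE 0.36; limma adjusted p = 0.431). Its other probe sets were below the level tested. Plcg1, a phospholipase downstream of the T cell receptor as well as of plexins, had 3954, 3864 and 4393 in iTreg, against 2835, 3099 and 2061 in WT Treg, a difference of 0.63 (limma adjusted p = 0.622). Its other probe sets differed by 0.33 and -0.06. Cdk5, a kinase of semaphorin signalling, differed by -0.84 (limma adjusted p = 0.762) and by 1.01 on its second probe set; the first was -0.21 without iTreg replicate 3 and -1.38 without iTreg replicate 2. Crmp1, a cytoskeletal mediator of Sema3a signals, differed by -0.64 (limma adjusted p = 0.792), with iTreg replicate 3 above all other arrays at 79.2, and by -1.17 without that array and -0.31 without iTreg replicate 2.

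**Figure D5:**
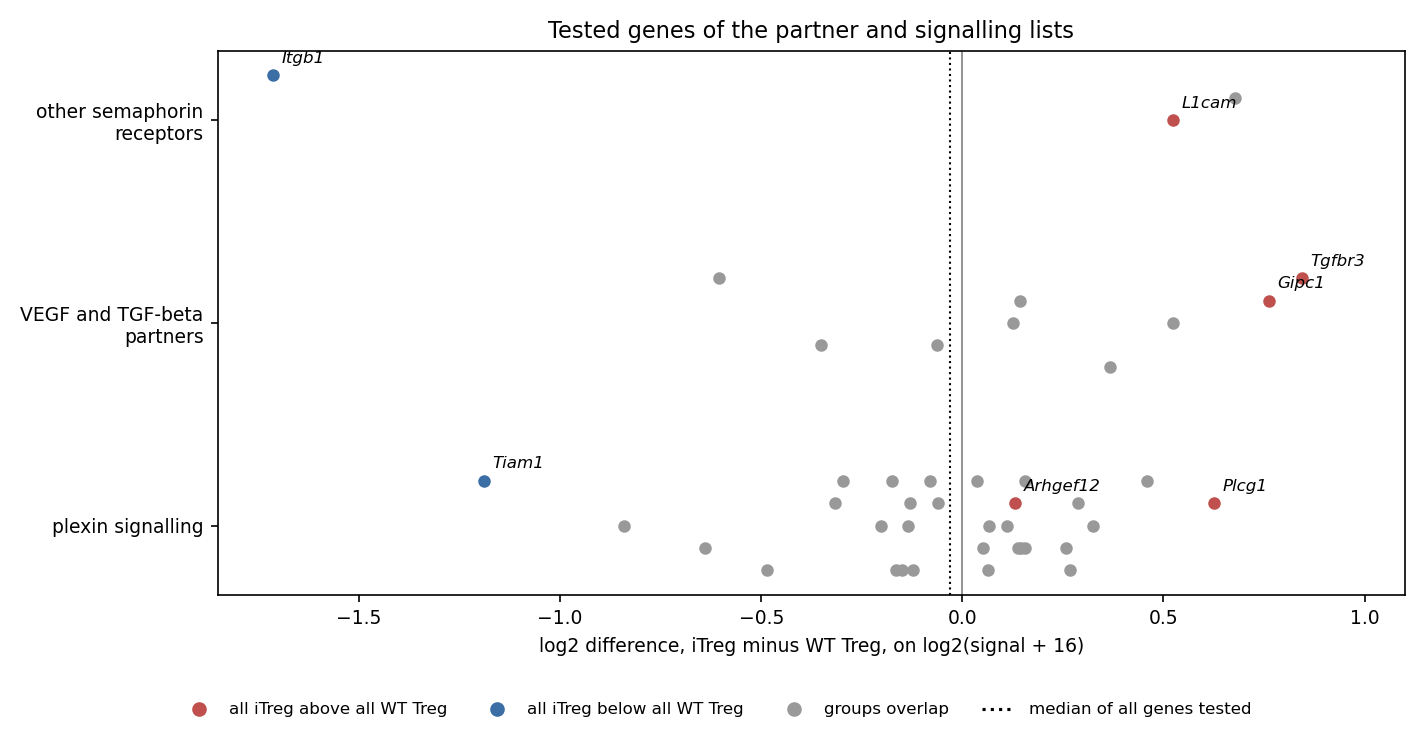
Log2 difference, iTreg minus WT Treg, of the tested genes of the 3 partner and signalling lists; red and blue points are genes whose groups do not overlap, grey points overlap, the vertical spread within a list carries no value, and the dotted line is the median of all genes tested, -0.03. Itgb1 at -1.71 and Tiam1 at -1.19 lie farthest down and Tgfbr3 at 0.85 farthest up.

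The genes whose levels ran most like those of Nrp1 over the 6 arrays were D430019H16Rik, Cabp2 and Mapkapk3, with Pearson r of 0.989, 0.988 and 0.987 and log2 differences of -1.06, -0.70 and -0.56. Most like Sema4a were Slc25a37, Gimap3 and Zbtb11os1, with r of 0.991, 0.988 and 0.987 and differences of 0.53, 0.46 and 0.72. These values only describe 6 points that share arrays and scaling, and 47 genes exceeded an r of 0.95 with Nrp1 and 31 with Sema4a.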

How the data were processed

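Affymetrix mouse arrays of 3 iTreg and 3 WT Treg samples were compared, with groups and replicate numbers from the titles. The deposited values are MAS5 intensity signals, each for a whole probe set, according to the submitters' processing notes and as deposited; the MAS5 version and a genome build are not given in the sources used here. Of 45101 probe sets 34945 had 1 gene symbol in the platform annotation, 932 several and 9160 none, beside 64 controls. Symbols were set against RefSeq names, and 204 probe sets kept an older one. Signals were transformed as log2(signal + 16), which understates differences of dim genes. Each gene was read by its probe set with the highest mean, and the test kept the 10916 of 18193 genes whose mean log2 level reached the 40th percentile, 4.99; probe sets were filtered likewise, 20967 in all. The comparison used limma 3.58.1 under R 4.3.3 (lmFit, eBayes with an intensity trend, two-sided, Benjamini-Hochberg over all features tested, threshold 0.05); intervals are limma's 95% intervals. The script was tested on simulated data. Background is the highest of 27 unspiked bacterial controls; detection calls were not used here. The genes, lists and alternatives were chosen with earlier results of these data known. Named were all 10 genes with every probe set, other tested family genes past an unadjusted p of 0.05 or without overlap (none; the 2 tested are given), up to 4 genes per partner list by smallest p, and the 3 genes most correlated with Nrp1 and Sema4a. The number of arrays limits the precision.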

Additional observations from a re-analysis of the deposited data

How the results depend on the processing

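The 10 genes were recomputed under 19 alternatives, and the named partner genes too, a choice made after seeing the data. Nrp1, Nrp2, Sema4a, Plxna1 and Plxnc1 kept their sign in all that tested them, but many of the alternatives could not have turned it. The filters, the fit without an intensity trend and the fit of replicate numbers as a block cannot change a difference. For Nrp1, Sema4a and Plxna1, whose groups do not overlap, neither can leaving out arrays or another pseudocount turn the sign. With array weights and with the mean of probe sets, 1 of the 10 genes was called instead of 0, in each case Nrp1 (-1.98 and -2.24), whose direction the gate fixes, so that the call is no result. Sema4b turned to -0.30 without both replicate 3 arrays, Sema4d to -0.15 with the mean of probe sets, and Plxnd1 to -0.13 with array weights and -0.34 without both replicate 3 arrays. With the mean of probe sets L1cam turned to -0.41 and Cdk5 to 0.11. Single arrays left out gave -0.37 to 0.99 for Sema4b, -0.21 to 0.58 for Sema4d, -0.23 to 0.49 for Sema4f and -0.29 to 0.29 for Plxnd1. Over all genes, 3 calls became 0 with a pseudocount of 1, without a filter, without both arrays of disagreeing labels or without both replicate 3 arrays, 8 with median scaling, 14 with array weights, and 0 to 1 without single arrays; 4 calls among probe sets became 1 without a filter. Replicate numbers were also fitted as a block. Deviations of same-numbered arrays correlated at 0.17, 0.046 and 0.13. With arrays of other numbers the mean correlations were lower, at -0.075, -0.013 and -0.080. Same-numbered arrays were thus weakly more alike. With that replicate block 3 genes and 0 of the 10 were called (limma adjusted p = 0.289 for Sema4a and 0.489 for Plxna1). Both groups hold the same replicate numbers, so the block changes the errors and not the differences. These stayed by design at -2.08 for Nrp1, 1.86 for Sema4a and 1.13 for Plxna1. The signals of Nrp2, Plxnd1 and Plxnb2 lay near or under the controls, which limits what could be read from them.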
